A study of Mus musculus with 25 samples.

Results

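The miR-15/16 family was followed through the 5 rows of the count table named mmu-mir-15a, mmu-mir-15b, mmu-mir-16-1, mmu-mir-16-2 and mmu-mir-195a (mmu for mouse, left out below). They are 5 of 1193 rows. Each row gives the reads of 1 precursor hairpin, the folded RNA from which mature miRNAs are cut, with both arms counted together. The libraries were made from RNA of a brain hemisphere of male C57BL/6 mice, an inbred laboratory strain, at 2, 9, 15, 24 and 30 months of age. There were 5 libraries at each age and 25 in all. The groups differed in age alone, as far as the labels say, and no treatment or altered allele is named. Each library has its own animal number in the labels, and the 5 libraries of an age were taken as 5 animals. The animals were all male and of 1 strain, and the RNA came from whole tissue. In such bulk RNA, fewer cells of a type and less RNA per cell cannot be told apart.

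Mature miRNAs guide Argonaute proteins to messenger RNAs, mostly by pairing through the seed, which is bases 2 to 8 of the miRNA, and lower the translation and stability of those messages. The miR-15/16 family is known as a brake on the cell cycle and on survival: messages of cyclin D1, cyclin E1 and BCL2 are among its established targets. The human pair at the locus of mir-15a and mir-16-1 is often deleted in chronic lymphocytic leukaemia. In muscle of the heart, miR-195 is known to push cells out of the cycle soon after birth.

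The mature sequences are shown first because the loci share their seed and differ in the 3′ part, which decides whether reads of different loci can be told apart. They are from RefSeq on build GRCm38.p6, 5′ to 3′, and capitals mark the seed. All 5 members had an entry there. The last pair in the list are no members: mir-497a is the genomic neighbour of mir-195a, and mir-322 is an X-linked locus with the same seed.
miR-16-5p: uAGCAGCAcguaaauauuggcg
miR-195a-5p: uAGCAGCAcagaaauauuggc
miR-15a-5p: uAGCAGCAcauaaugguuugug
miR-15b-5p: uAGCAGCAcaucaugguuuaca
miR-497a-5p: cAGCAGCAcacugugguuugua
miR-322-5p: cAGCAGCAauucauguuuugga
Outside the seed the family falls into a miR-16-like and a miR-15-like form. Positions are counted from 1 at the 5′ end, with the base of the first-named miRNA first. Over the 21 positions that both have, miR-195a-5p differs from miR-16-5p by G10A and U11G. miR-15b-5p differs from miR-15a-5p by A12C, G20A, U21C and G22A. miR-15a-5p differs from miR-16-5p at 6 of 22 positions, G10A, A14U, U15G, A16G, G19U and C21U. miR-497a-5p differs from miR-15a-5p at 5 of 22.

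miR-16-5p is cut from hairpins on different chromosomes. Below, the shared mature RNA is in capitals and the rest of each hairpin is in lower case, to show that its reads carry no base that tells the loci apart.
Mir16-1 hairpin: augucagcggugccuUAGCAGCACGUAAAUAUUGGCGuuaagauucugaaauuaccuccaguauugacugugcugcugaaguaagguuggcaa
Mir16-2 hairpin: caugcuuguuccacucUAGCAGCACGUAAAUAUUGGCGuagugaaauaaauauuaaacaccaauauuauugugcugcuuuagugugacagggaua
On build GRCm38 (annotation GENCODE M21), mir-16-1 lies at chr14:61631880-61631972 on the minus strand, 54 bases from mir-15a at chr14:61632027-61632110. Both lie in the long non-coding gene Dleu2. There mir-15a is in introns only, while mir-16-1 overlaps an annotated exon. mir-15b at chr3:69009772-69009835 and mir-16-2 at chr3:69009902-69009996, on the plus strand, are 66 bases apart in introns of Smc4, which encodes a subunit of condensin. mir-195a at chr11:70235042-70235135 and mir-497a at chr11:70234717-70234800, also on the plus strand, are 241 bases apart with no host gene on their strand in that annotation.

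The total count of a library lay between 3.78 and 9.52 M (M for mega, median 5.61 M). Levels are given as CPM, the usual unit of counts relative to the library total, here after TMM scaling of that total. The sequencing lane stands in the column names of the table and served as a technical batch of 6 lanes. Lane 3 held 1 library of each age, and these 5 stood apart from the rest, in the family too. In them mir-16-1 and mir-16-2 were each the highest of their age in 5 of 5 ages and mir-15b was the lowest in 5 of 5. Values without lane 3 and within lanes are given beside the results. The 9 neuron-enriched hairpins of the mir-124, mir-9, mir-128 and mir-137 loci were present in every library, with a summed level of 59364 to 80242 CPM.

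The family held 0.902% to 1.202% of the reads of a library, with a median of 1.004%. The mir-16 hairpins together made up 90.3% to 92.5% of the family's reads. mir-15a followed with a median share of 5.06%, then mir-195a with 3.47% and mir-15b with 0.447%. By mean level over all libraries, mir-16-1 ranked 43 and mir-16-2 ranked 45 among the 1193 hairpins, against 131 for mir-15a and 153 for mir-195a, with mir-15b further down. The order mir-16-1 above mir-15a, mir-15a above mir-195a and mir-195a above mir-15b held in 25 of 25 libraries. The mir-16-1 row had 8.09 to 11.2 reads for each read of mir-15a. Among the members, only mir-16-1 and mir-16-2 had ranges over the libraries that overlapped. Within a library mir-16-1 stood above mir-16-2 in 20 of 25, with a ratio of 0.989 to 1.02. mir-16-1 held 49.7% to 50.5% of the reads of the pair. How the authors' counting treated reads with several matches is not given in the sources used here, so the mir-16 rows count as 1 measurement of miR-16 and give no level for either locus. If a miR-16 read was counted at both hairpins, the shares of the mir-16 rows and of the family above are too high.

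Between 2 and 30 months, mir-15a and the mir-16 rows rose, by 1.21-fold and 1.15-fold, and mir-15b and mir-195a did not pass the test. The 3 rows that passed, mir-15a, mir-16-1 and mir-16-2, were all higher at 30 months. With the mir-16 rows summed as 1 measurement and scaled anew, miR-16 did not pass (log2 fold change 0.17, edgeR adjusted p = 0.0688). It did pass the test of a line through all ages (edgeR adjusted p = 0.0289). Its log2 fold change of 30 against 2 months lies below the 0.20 of each row, so that lost call cannot be put down to summing alone. The test was edgeR's quasi-likelihood F test, with p-values adjusted by Benjamini-Hochberg over all 425 hairpins that passed the filter on low counts, all 5 members among them, and a threshold of 0.05. Of those 425, 36.9% passed in this comparison, 19.1% higher and 17.9% lower at 30 months (81 and 76 hairpins, or 50 and 91 with upper-quartile scaling). Among the 5 members the median log2 fold change was 0.20, with 5 of 5 above 0, and that of all 425 hairpins was 0.05, with 230 above 0. The members' median is the value of mir-16-1, and both mir-16 rows, which are 1 measurement, enter it and the count. The p-values rest on the spread between animals.

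**Figure D1:**
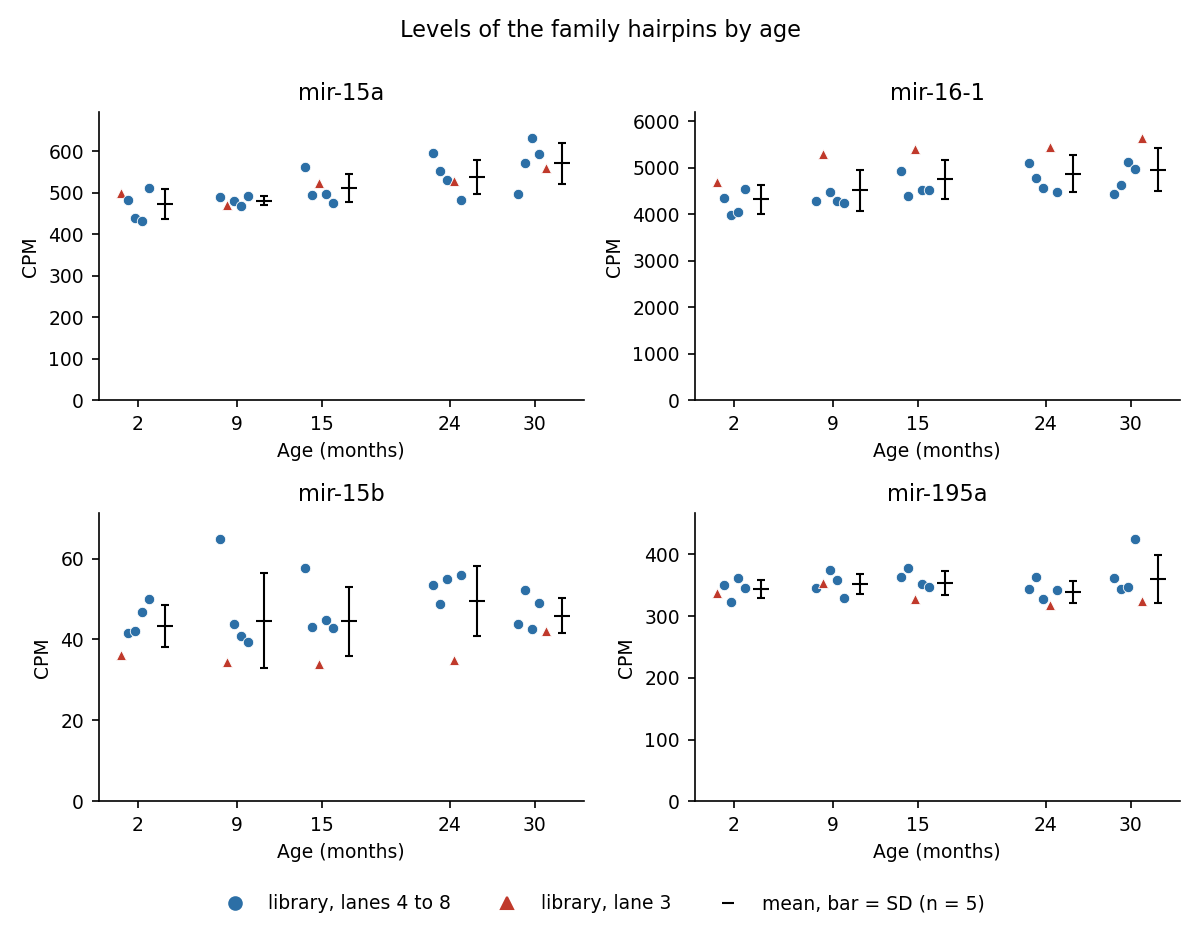
Levels of mir-15a, mir-16-1, mir-15b and mir-195a in CPM (vertical axes, from 0) at the 5 ages in months (horizontal axes). Each point is a library, triangles are the libraries of lane 3, and the horizontal tick with its bar is the mean with the SD of the 5 libraries of an age. mir-15a goes from a mean of 473 CPM at 2 months to 571 CPM at 30 months, while the lane 3 triangles are the highest points at each age for mir-16-1 and the lowest for mir-15b.

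At the Dleu2 locus, mir-15a gave 499, 483, 440.3, 433 and 512 CPM in replicates 1 to 5 at 2 months. At 30 months it gave 497, 572, 631, 594 and 559 CPM. Thus 4 of the 5 old libraries lay above all 2-month libraries, and only 30-month replicate 1 fell within their range. The mean of mmu-mir-15a rose from 473 ± 35.3 CPM to 571 ± 49.5 CPM (n = 5 each, SD). Its log2 fold change was 0.27 ± 0.06 (SE, edgeR adjusted p = 0.00221), with a 95% confidence interval from 0.14 to 0.40.

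The ages between filled the interval. mir-15a stood at 491, 472, 480.3, 469 and 493 CPM at 9 months and at 563, 496, 524, 496 and 475 CPM at 15 months. At 24 months it stood at 595, 552, 531, 528 and 483 CPM. The mean was thus higher at each later age, but each neighbouring pair of ages overlapped, and in none of the 4 tests of adjacent ages did mir-15a pass. A line through all ages gave a rise of 0.12 ± 0.02 log2 units per 12 months (SE, edgeR adjusted p = 0.000319), and a test for any difference among the 5 ages was passed as well (edgeR adjusted p = 0.00800). Of all hairpins, 35.5% passed the test of the line, with 19.5% rising, and 32.7% passed the test for any difference. Lane moved little here: in the 4 lanes that held both ages, mir-15a was higher at 30 months in 4, by 0.16 to 0.40 on the log2 scale, and in lane 3 it was neither the highest nor the lowest library at any age. mir-15a passed the comparison of 30 with 2 months in every setting that was run, although upper-quartile scaling brought it to 0.20 (adjusted p = 0.0443).

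mir-16-1, its neighbour, gave 4700.5, 4341, 3986, 4041 and 4551 CPM in replicates 1 to 5 at 2 months, and 4429, 4631, 5128, 4972 and 5630.4 CPM at 30 months. The ages overlapped: 3 of the 5 old libraries lay above all 2-month libraries. The highest value of each age came from lane 3. The mean of mmu-mir-16-1 rose from 4324 ± 312 CPM to 4958 ± 466 CPM (n = 5 each, SD), and its log2 fold change was 0.20 ± 0.08 (SE, edgeR adjusted p = 0.0443). mmu-mir-16-2 rose from 4283 ± 328 CPM to 4923 ± 461 CPM with the same fold change of 0.20 (adjusted p = 0.0437), and the pair went together in all libraries (Pearson's r of log2 CPM 0.996 over 25 libraries that share lanes and scaling).

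The difference of miR-16 sat near the threshold. The call of mir-16-1 was lost when the hairpins were summed and scaled anew (0.17, adjusted p = 0.0688). It was also lost with other scalings (0.12 to 0.17) and when 1 library was left out in 17 of 25 cases. It was kept with lane as a covariate (0.20, adjusted p = 0.000576) and without lane 3 (0.15, adjusted p = 0.0299). Within the 4 lanes, mir-16-1 was higher at 30 months in 4, by 0.15 to 0.26 on the log2 scale.

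At 9 months mir-16-1 stood at 4278, 5293, 4486, 4275 and 4231 CPM, and at 15 months at 4922, 4395, 5406, 4515 and 4509 CPM. At 24 months it stood at 5106, 4770.1, 4565, 5438 and 4481 CPM. At each of these ages the highest value, 5293, 5406 and 5438 CPM, was that of lane 3. The mean rose from age to age without passing an adjacent test, and the line through all ages gave 0.08 ± 0.03 log2 units per 12 months (SE, edgeR adjusted p = 0.0180). mir-16-2 gave 0.09 with the same adjusted p. The summed rows, scaled anew, gave 0.07 ± 0.03 log2 units per 12 months (SE, edgeR adjusted p = 0.0289). Neither mir-16-1 nor mir-16-2 passed the test for any difference among the ages (adjusted p = 0.172 and 0.174), nor did the sum (edgeR adjusted p = 0.210). With lane as a covariate both rows passed it (adjusted p = 0.00428).

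mir-15b, at the Smc4 locus, was the least abundant member and, relative to its mean, the one with the largest SD over the 25 libraries (45.6 ± 7.78 CPM). It gave 36.3, 41.6, 42.0, 46.8 and 49.96 CPM at 2 months and 43.7, 52.1, 42.7, 48.9 and 42.0 CPM at 30 months. The ages overlapped, with 1 of the 5 old libraries above all young ones. The means of mmu-mir-15b were 43.3 ± 5.26 and 45.9 ± 4.41 CPM (SD, n = 5), and the log2 fold change was 0.08 ± 0.15 (SE, edgeR adjusted p = 0.688). Its 95% confidence interval from -0.24 to 0.40 holds 0.27, the value of mir-15a.

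Between these ages mir-15b reached its widest spread, from 34.4 to 64.8 CPM at 9 months, from 33.9 to 57.7 CPM at 15 months and from 34.8 to 55.9 CPM at 24 months. The lowest value of each of these ages was the lane 3 library. The line through all ages gave 0.06 log2 units per 12 months (edgeR adjusted p = 0.465).

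mir-195a on chromosome 11 had the smallest SD of the members relative to its mean over the 25 libraries (349.7 ± 22.2 CPM). It gave 338, 351, 323.1, 362 and 346 CPM at 2 months and 361, 344, 347, 424 and 324.03 CPM at 30 months. Only 30-month replicate 4, at 424 CPM, lay above all young libraries. The means of mmu-mir-195a were 344 ± 14.5 and 360 ± 38.4 CPM (SD, n = 5), and the log2 fold change was 0.07 ± 0.06 (SE, edgeR adjusted p = 0.419, 95% confidence interval from -0.06 to 0.19). Means at the ages between were 352 CPM at 9 months, 353 CPM at 15 months and 339 CPM at 24 months, and the line through all ages gave 0.01 log2 units per 12 months (adjusted p = 0.739).

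No member passed a test of adjacent ages. The share of all hairpins that passed was 7.76% for 9 against 2 months, 0% for 15 against 9, 0.235% for 24 against 15 and 8.71% for 30 against 24 months. mir-15a gave log2 fold changes of 0.02, 0.09, 0.07 and 0.09 over these intervals.

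**Figure D2:**
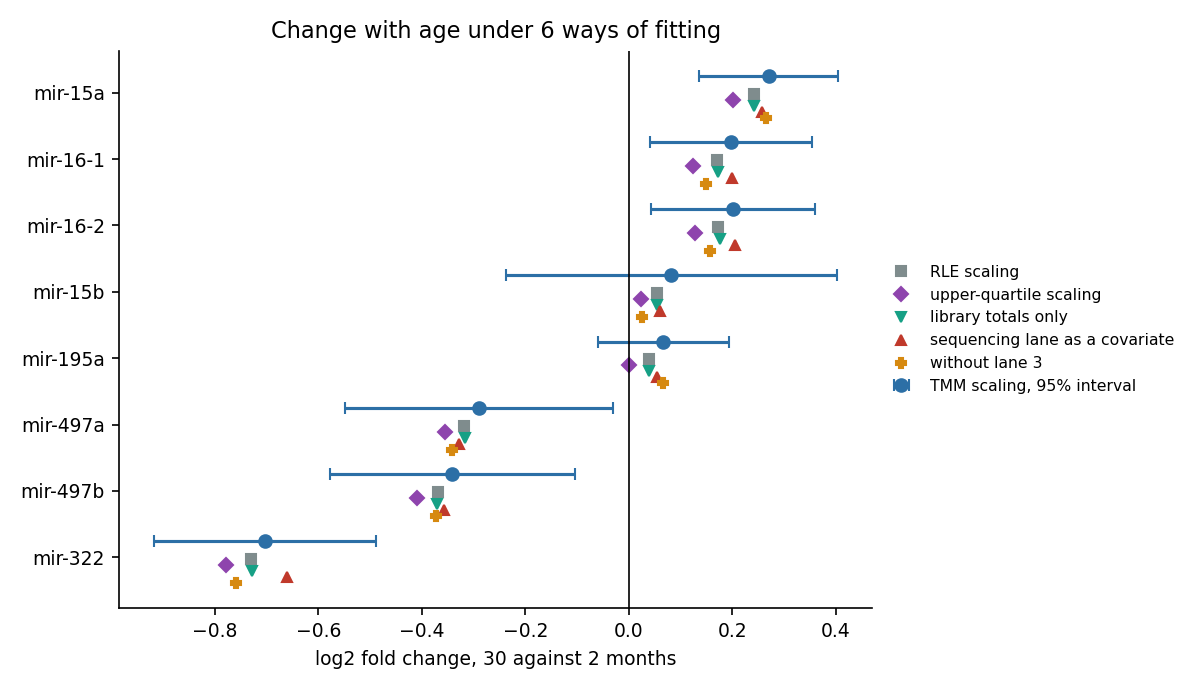
Log2 fold change of 30 against 2 months (horizontal axis, 0 marked by a line) for the 5 members and 3 related hairpins (rows). The circle is the value with TMM scaling with its 95% interval, and the other marks, set below it for legibility, are the same fold change under 3 other scalings, with lane as a covariate and without lane 3. mir-15a lies between 0.20 and 0.27 in all of them, mir-16-1 between 0.12 and 0.20, and mir-322 lies lowest.

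Whether rows changed unequally was asked from ratios of read counts within a library, which do not depend on scaling. Those with a mir-16 row compare a member with miR-16 as a whole and not with its cluster neighbour. There were 4 such ratios, each compared between the 5 libraries of 2 months and the 5 of 30 months by an exact two-sided permutation test, whose smallest possible p is 0.00794. The ratio of mir-15a to the mir-16-1 row changed by 0.07 on the log2 scale (exact permutation p = 0.270, adjusted p = 0.3598). That of mir-15a to its paralog mir-15b changed by 0.18 (exact permutation p = 0.175, adjusted p = 0.349), and that of mir-15b to the mir-16-2 row by -0.11 (p = 0.452, exact permutation). These 3 did not pass. The test takes no account of lane. Within the 4 lanes that held both ages, the ratio of mir-15b to mir-16-2 was lower at 30 months in 4, by -0.04 to -0.40, while those of mir-15a to mir-16-1 and to mir-15b were higher in 3 each. Without 30-month replicate 5, the lane 3 library of that age, the ratio of mir-15a to mir-16-1 rose by 0.13 and passed (exact permutation, adjusted p = 0.0476). Without lane 3 at both ages it differed by 0.12 and did not pass (exact permutation p = 0.0571, adjusted p = 0.114).

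The ratio of mir-195a to its neighbour mir-497a did pass. At 2 months there were 2.83, 2.29, 2.15, 2.87 and 2.37 reads of mir-195a for each read of mir-497a, and at 30 months 3.10, 3.55, 3.29, 2.93 and 3.09. The ages did not overlap. On the log2 scale the ratio went from 1.31 ± 0.19 to 1.67 ± 0.11 (SD, n = 5), a difference of 0.36 (exact permutation p = 0.00794, the smallest the design allows, adjusted p = 0.0317 over the 4 ratios). At the ages between, the 9-month ratios ran from 2.56 to 3.31 and the 24-month ratios from 2.35 to 3.75, across both ends. With lane 3 left out the difference was larger, 0.42, and its exact permutation p of 0.0286 was the smallest that 4 against 4 libraries allow, which came to an adjusted p of 0.114 over the 4 ratios. Within the 4 lanes that held both ages the ratio was higher at 30 months in 4, by 0.13 to 0.53. The call was lost without any 1 of 30-month replicates 1 to 4 (adjusted p up to 0.127). The ages still did not overlap there, and the difference with any library left out was 0.31 to 0.41. With unequal groups, other divisions can give this test a difference as large even where the ages do not overlap.

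That ratio moved through mir-497a more than through mir-195a. mir-497a gave 119.6, 153, 150.2, 126 and 146 CPM at 2 months and 116, 96.9, 105, 145 and 105 CPM at 30 months, so that 4 of 5 old libraries lay below all young ones. Its log2 fold change was -0.29 ± 0.13 (SE, edgeR adjusted p = 0.0721). That did not pass, nor did it in 3 of 10 other settings. In the rest of those settings mir-497a passed, as it did in 12 of 25 fits with 1 library left out. mir-497b fell by 0.34 on the log2 scale, from 138 to 109 CPM (edgeR adjusted p = 0.0223). mir-497b is annotated on the opposite strand at chr11:70234692-70234816, and the whole mir-497a hairpin of 84 bases lies within the reverse complement of its 125 bases. mir-497a held 47.6% to 52.9% of the reads of the pair. Without a stated strand setting, their reads cannot be told apart, and the rows count as 1 measurement.

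Of the other loci with the family's seed, only mir-497a and mir-322, at chrX:53054255-53054349 on the minus strand, had reads. mir-322 is the mouse counterpart of human miR-424, which is also known to restrain the cell cycle. mir-322 gave 113, 105, 89.9, 97.4 and 115 CPM at 2 months and 56.3, 59.1, 72.2, 57.8 and 73.7 CPM at 30 months. The ages did not overlap, as was true of 21.4% of all tested hairpins, and mir-322 was the only one of the 8 hairpins described here of which it was true. mir-322 fell by 0.70 ± 0.10 on the log2 scale (SE, edgeR adjusted p = 1.34e-05). Between adjacent ages, mir-322 gave a log2 fold change of -0.47 for 9 against 2 months (adjusted p = 0.00562) and of -0.34 for 24 against 15 months. The latter did not pass (adjusted p = 0.221), but passed with lane as a covariate (-0.35, adjusted p = 0.0212). Thus, of hairpins with 1 seed, mir-15a rose and mir-322 fell, from mean levels at 2 months of 473 CPM for mir-15a and 104 CPM for mir-322. The remaining 4 hairpins with this seed in the sequence table, mir-195b, mir-6342, mir-6353 and mir-6419, had no read in any library. A count of 0 allows up to 3 reads, which is 0.315 to 0.794 CPM at these depths and covers counting error only.

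**Figure D3:**
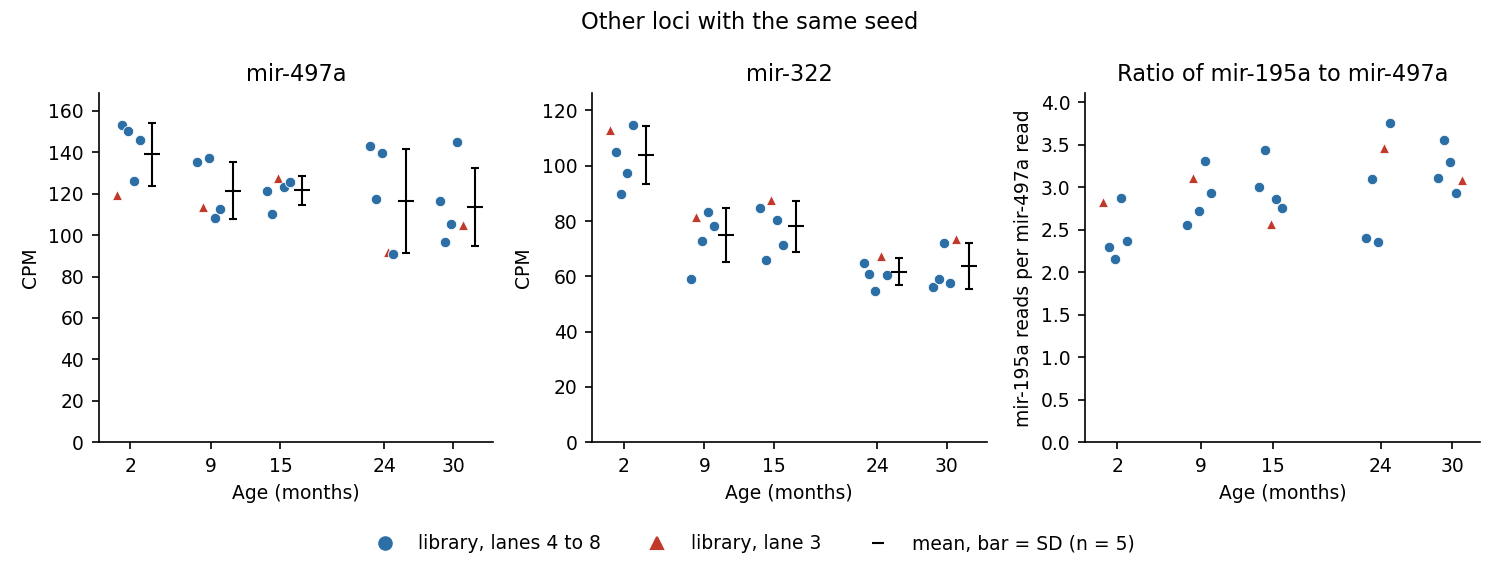
Levels of mir-497a and mir-322 in CPM, and reads of mir-195a per read of mir-497a (vertical axes, from 0), at the 5 ages in months (horizontal axes). Each point is a library, triangles are lane 3, and ticks with bars in the first panels are the mean with the SD of 5 libraries. At 30 months every mir-322 library lies below every 2-month library, and every ratio, from 2.93 to 3.55, lies above the 2-month ratios, which reach 2.87.

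Red blood cells carry miR-451a, miR-144 and miR-486, and blood kept in the vessels of a hemisphere adds them to its RNA. Whether the animals were perfused is not given in the sources used here. The hairpins mir-451a, mir-144, mir-486a and mir-486b summed to 2068 to 3493 CPM at 2 months, 2640 to 7814 CPM at 9 months, 2097 to 3983 CPM at 15 months, 2415 to 5548 CPM at 24 months and 2523 to 4999.7 CPM at 30 months. None of the 4 was at 0 in any library and none of the 4 passed the test of 30 against 2 months, with a median log2 fold change of 0.34. The sum reached at most 2768 CPM in lane 3, while lanes 4 to 8 gave 2523 to 7814 CPM.

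mir-15b followed this sum across libraries. Pearson's r of log2 values was 0.833 and Spearman's rho 0.821 over the 25 libraries, which share ages, lanes and scaling. Without lane 3 the r was 0.752 over 20 libraries, and without the 2 libraries farthest from the median sum, 9-month replicate 1 and 24-month replicate 3, it was 0.768. In the sum, the near-equal mir-486a and mir-486b rows (means of 1458 and 1450 CPM) outweigh mir-451a (468 CPM) and mir-144 (116 CPM). With mir-451a and mir-144 taken singly, the r of mir-15b was 0.722 and 0.668 over the 25 libraries. The highest mir-15b value of all, 64.8 CPM in 9-month replicate 1, came from the library with the highest sum, 7814 CPM. For mir-15a the r with the sum was 0.06, and 0.13 without the 2 farthest libraries. Taken singly, mir-144 gave mir-15a an r of 0.432 (0.421 without lane 3) and mir-451a one of 0.177. The mir-486a and mir-486b rows gave it 0.00843 and 0.0236. For mir-16-1 the r with the sum was -0.38, -0.03 without lane 3 and -0.35 without the 2 farthest. For mir-195a it was 0.27, 0.03 without lane 3 and 0.54 without the 2 farthest, so its value rests on which libraries are kept. The part of blood in the levels of mir-15b and mir-15a was not tested.

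**Figure D4:**
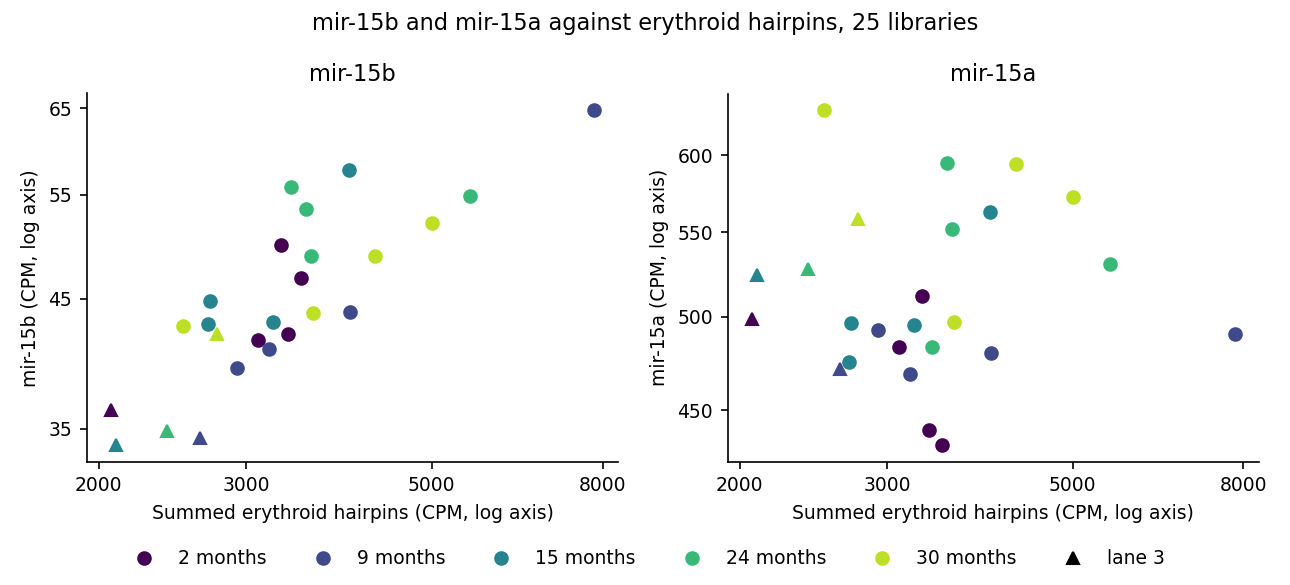
mir-15b (left) and mir-15a (right) in CPM against the summed erythroid hairpins mir-451a, mir-144, mir-486a and mir-486b in CPM, with log axes throughout. Each mark is 1 of 25 libraries, coloured by age, and triangles are lane 3. The mir-15b points lie along a rising band with an r of 0.833, and the mir-15a points scatter with an r of 0.0644.

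The hairpins most like each member were sought among 320 hairpins outside the family with a mean of at least 10 CPM, by Pearson's r of log2 CPM over the 25 libraries. For mir-15a these were mir-26a-1 (0.788), mir-26a-2 (0.782) and mir-181b-2 (0.751), and r was 0.877, 0.870 and 0.780 without lane 3. For mir-16-1 they were mir-27b (0.936), mir-29a (0.888) and mir-29c (0.877), with 0.871, 0.790 and 0.744 without lane 3. For mir-15b they were mir-486b (0.834) and mir-486a (0.828), both of the erythroid list, and let-7j (0.751), which went to 0.413 without lane 3. The mir-486 rows had near-equal means (1450 and 1458 CPM), as had the mir-26a rows (26413 and 26414 CPM). Neither pair therefore counts as separate matches. mir-195a had no close match: mir-99a (0.579), mir-9-2 (0.508) and mir-184 (0.506) came first. Within the family, mir-15a and mir-16-1 had an r of 0.665 over all libraries and 0.935 over the 20 outside lane 3. mir-15b had an r of 0.235 with mir-15a and -0.285 with mir-16-1, the latter 0.313 without lane 3. The r of mir-195a with mir-497a was 0.226, and 0.0629 without lane 3. All these values share lanes, depth and scaling.

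Other miRNAs at the entry into the cell cycle came from lists. The let-7 and miR-34 families, which also restrain cyclins and CDKs, had 15 of 15 hairpins tested, of which 5 rose between 2 and 30 months and 0 fell, with a median log2 fold change of 0.16 against 0.05 for all hairpins. Of all hairpins 36.9% were called in this comparison, 19.1% higher and 17.9% lower. A count of 5 in 15 is near the share called in either direction and above the share called higher. Whether the list differs from all hairpins was not tested. The 5 were let-7i (0.44, edgeR adjusted p = 0.000373), let-7f-1 (0.38), let-7f-2 (0.38), mir-34c (0.27, adjusted p = 0.0152) and let-7d (0.16, adjusted p = 0.0219). The let-7f copies share a mature sequence. With upper-quartile scaling 3 passed, and the median was 0.09.

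The clusters that E2F factors and MYC are known to switch on, the mir-17-92 cluster and its paralogs, had 12 of 15 hairpins tested, and 2 rose and 2 fell, with a median of -0.06. These 4 of 12 are close to the 36.9% called among all hairpins. mir-93 rose by 0.35 (edgeR adjusted p = 3.18e-05) and mir-92a-1 by 0.22 (adjusted p = 0.0267). mir-17 fell by 0.29 (adjusted p = 0.00690) and mir-20a fell by 0.46 (adjusted p = 0.00513), both on the log2 scale. mir-17 and mir-20a stood at 40.4 and 33.1 CPM at 2 months, far below mir-93 at 563 CPM. Upper-quartile scaling left 1 rise and 2 falls.

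Cell type marker lists moved as follows between 2 and 30 months, as a description of the tissue behind the family's values. Of all tested hairpins, 36.9% were called in this comparison, 19.1% higher and 17.9% lower. All 3 oligodendrocyte hairpins (mir-338 and the mir-219a copies) rose, with a median log2 fold change of 0.71. Of 9 neuron-enriched hairpins, mir-128-1, mir-128-2 and mir-137 fell (-0.37, -0.35 and -0.23) and 0 rose, with a median of 0.09. That median rests on copies: the mir-124 copies gave 0.09 to 0.10 and the mir-9 copies 0.08 to 0.09. Of 3 leukocyte hairpins, mir-142a rose and mir-150 fell, and with upper-quartile scaling 0 rose and 1 fell. None of the 3 endothelial and mural hairpins passed, with a median of -0.00. Of the 6 of muscle and liver, 5 were tested, with a median of -0.31. The 2 that rose were the mir-133a copies (0.31 and 0.25). mir-1a-1, mir-1a-2 and mir-122 were lower at 30 months without passing (-0.50, -0.36 and -0.31). In this list upper-quartile scaling gave 1 higher and 1 lower, and RLE scaling 2 higher and 1 lower. The part of cell composition in the values of mir-15a and miR-16 was not tested.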

How the data were processed

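The values are raw counts per hairpin as deposited by the authors, without normalization, and all 25 columns were used. Libraries came from total RNA with the TruSeq small RNA kit, per the labels' protocols. Tools named in the submitters' processing notes are SAMtools 1.3.1-9, Trimmomatic 0.36 and bcl2fastq 1.8.4. Which aligner, counter, build and strand setting were used, and what became of reads with several matches, is not given in the sources used here.

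Ages came from the labels and lanes from the column names. Replicate numbers follow deposition order and pair no animals. Over the 50 pairs of libraries of 1 age, chi-square per degree of freedom was 19.6 to 304, so none was counted as a repeat.

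Counts were fitted with R 4.3.3 and edgeR 4.0.16 (limma 3.58.1 loaded): filterByExpr kept 425 hairpins and set 768 aside, TMM factors were 0.952 to 1.04, and the quasi-likelihood fit took all libraries together with 1 mean for each age, or age as a number for the line. P-values were adjusted by Benjamini-Hochberg over the 425. The SE is the log2 fold change divided by the square root of F. Scripts were tested on simulated data. The exact permutation tests ran in R, and their unadjusted p-values without lane 3 came from Python 3.11.15. Ratios of single libraries, within-lane values and correlations also used Python, with scipy 1.17.1, and figures used matplotlib 3.10.9. Errors come from the spread between animals; the kit has no molecular identifiers, so read counts are not counts of molecules.

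Named were the 5 members, other hairpins with the seed of miR-16-5p, the neighbours mir-497a and mir-497b, list members that passed, and the 3 hairpins most like each member. Members and lists were chosen with earlier results of these data known. Alternatives were RLE and upper-quartile scaling, totals alone, other filters, only the ages compared, lane as a covariate, no lane 3, summed mir-16 rows, each library left out, and DESeq2 1.42.0. Scaling was taken anew in each of these fits. TMM averaged over all reference libraries was chosen after seeing the data. Coordinates are 1-based.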

Additional observations from a re-analysis of the deposited data

Results flagged for a closer look

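Of 40 groups of 5 libraries examined (8 hairpins at 5 ages), 3 held a library set far from the other 4, and chance alone flags about 1 in 20 such groups. In 9-month replicate 2, of lane 3, mir-16-1 stood at 5293 CPM with the next library at 4486 CPM. The same library held mir-16-2 at 5253 CPM with the next at 4445 CPM, and these rows are 1 measurement. Without it, the test for any difference among the 5 ages was passed by mir-16-1 (edgeR adjusted p = 0.0353) and by mir-16-2 (adjusted p = 0.0405). In 15-month replicate 4, of lane 4, mir-497b stood at 135.9 CPM with the next library at 118 CPM. At 9 months the lane 3 library was also the lowest for mir-15b, at 34.4 CPM.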

How the results depend on the processing

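mir-15a passed 30 against 2 months in all 10 other settings (0.20 to 0.27, adjusted p up to 0.0443) and with each library left out (0.20 to 0.29, adjusted p up to 0.0194). Its test for any difference among ages was lost with upper-quartile scaling (adjusted p = 0.0669). For 30 against 2 months, mir-16-1 and mir-16-2 lost their calls with RLE scaling (0.17, adjusted p = 0.0696; 0.17, 0.0678), upper-quartile scaling (0.12, 0.341; 0.13, 0.334), a minimum of 10 CPM in 5 libraries (0.16, 0.0728; 0.17, 0.0694), only the ages compared (0.16, 0.114; 0.17, 0.111), the summed rows (0.17, 0.0688) and DESeq2 (0.17, 0.0699; 0.17, 0.0661), and mir-16-1 also with totals alone (0.17, 0.0502). With a library left out they ranged from 0.11 to 0.21 (adjusted p 0.0211 to 0.242 and 0.0199 to 0.226) and each lost the call in 17 of 25 cases. The choice of the library to which TMM refers bore on this: mir-16-1 passed with 12 of 25 such libraries (0.15 to 0.21), and mir-15a with 25 of 25. With TMM averaged over all of them, a setting chosen after seeing the data, mir-16-1 passed narrowly at 0.18 (edgeR adjusted p = 0.04997). The slopes of mir-16-1 and mir-16-2 were lost with upper-quartile scaling (0.0672 and 0.0683, adjusted p = 0.138) and ranged from 0.0578 to 0.0879 and 0.0594 to 0.0889 with a library left out, which lost the call in 3 and 2 of 25 cases (adjusted p up to 0.0847 and 0.0808). Each slope passed with 23 of 25 TMM reference libraries. With lane as a covariate both passed the test for any difference (adjusted p = 0.00428); with a library left out it gave 0.0353 to 0.376 and 0.0405 to 0.382. mir-497a passed 30 against 2 months in 7 of 10 other settings (-0.29 to -0.36 over the 10).

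Small differences that did not pass changed sign. mir-15a gave -0.00971 for 9 against 2 months with upper-quartile scaling. For 15 against 9 months, mir-15b gave 0.00409 with no filter, and so did mir-497b with 0.00274. mir-195a gave -0.0162 (upper-quartile), -0.000682 (totals), -0.00218 (10 CPM) and -0.00561 (lane covariate) there, and mir-497a -0.0148 (upper-quartile), -0.00329 (totals), -0.00388 (10 CPM) and -0.0421 (without lane 3). For 24 against 15 months mir-497a gave 0.0265 without lane 3. For 30 against 24 months, upper-quartile scaling, totals alone and leaving out lane 3 gave -0.0486, -0.0186 and -0.0115 for mir-16-1 and -0.0514, -0.0216 and -0.0106 for mir-16-2, which gave -0.000260 with no filter. mir-322 gave -0.0254 (upper-quartile) and -0.00245 (without lane 3) there. The slope of mir-195a was -4.91e-05, -0.00467 and -0.00255 with RLE, upper-quartile scaling and 10 CPM. With 1 library left out, 30 against 2 months gave -0.0194 to 0.133 for mir-15b and -0.00442 to 0.0742 for mir-195a. For 9 against 2 months the range was -0.00555 to 0.0718 for mir-15a, -0.133 to 0.136 for mir-15b and -0.00166 to 0.0623 for mir-195a. For 15 against 9 months it was -0.112 to 0.153 for mir-15b, -0.0195 to 0.0431 for mir-195a, -0.0258 to 0.0529 for mir-497a, -0.0643 to 0.0517 for mir-497b and -0.0266 to 0.112 for mir-322. For 24 against 15 months it was -0.00713 to 0.0746 for mir-16-1, -0.00185 to 0.0845 for mir-16-2 and -0.157 to 0.0108 for mir-497a. For 30 against 24 months it was -0.0495 to 0.0667 for mir-16-1, -0.0506 to 0.0659 for mir-16-2, -0.153 to 0.0372 for mir-497a, -0.123 to 0.0111 for mir-497b and -0.0322 to 0.0841 for mir-322. For the slope of mir-195a it was -0.0121 to 0.0167.

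Counts of hairpins past the threshold for 9 against 2 months were 33, against 15 with no filter, 9 with only the ages compared, 50 with lane as a covariate and 19 to 39 with a library left out. For 15 against 9 they were 0, with totals alone 1, with DESeq2 2, and 0 to 1. For 24 against 15 they were 1, against 0 (upper-quartile, no filter, without lane 3), 2 (lane, DESeq2) and 0 to 1. For 30 against 24 they were 37, against 20 with no filter, 19 with only the ages compared and 16 to 53. For 30 against 2, upper-quartile scaling gave 50 higher and 91 lower hairpins, against 81 and 76. The log2 ratio of mir-195a to mir-497a gave 0.42 without lane 3 (exact permutation, adjusted p = 0.114, from the smallest p that 4 against 4 libraries allow) and 0.31 to 0.41 with a library left out, and that of mir-15a to mir-16-1 gave 0.0475 to 0.127. No paired analysis was possible because replicate numbers only follow the order of deposition; ages are matched by lane only, in the fit with lane as a covariate and in the within-lane values. The cause of these changes was not tested.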
